A study of Mus musculus with 32 samples.

Results

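Tab2, Denr, Plagl1, Olig1, Plcd4, Mab21l3, St14 and Inka2, 8 of the 20659 named genes on the array, carried some of the largest differences between the Gyk knockdown and its control in culture. Tab2, Denr, Plagl1 and Olig1 were lower in the knockdown, and Plcd4, Mab21l3, St14 and Inka2 were higher. Gyk stands for glycerol kinase, whose symbol in the RefSeq table is Gk. The genes were selected on these log2 differences between Gyk knockdown and control, so the values of these 8 genes in the Gyk comparison are given as a description with no test, and they are tested only in the other comparisons of the study. Among 12219 genes measured in the Gyk comparison and ordered by difference, the falls placed Tab2 at rank 1, Denr at rank 4, Olig1 at rank 7 and Plagl1 at rank 9. The rises placed Plcd4 at rank 2, Inka2 at rank 4, Mab21l3 at rank 5 and St14 at rank 6. Just outside the chosen genes, Slc25a46 differed by -2.07 at rank 10 of the falls and Hba-a2 by 2.32 at rank 7 of the rises, both on the log2 scale.

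RNA from C57Bl/6 mouse samples was measured on 32 one-colour arrays in 8 groups of 4, and the labels call every sample preadipocytes. The culture groups, labelled as in vitro and at room temperature, were Pparg control, Pparg knockdown, Gyk control and Gyk knockdown. The in vivo groups were Pparg control and Pparg knockout at room temperature, and Pparg control and Pparg knockout under cold exposure. Pparg encodes the nuclear receptor that drives fat cell differentiation, and the title of the study places glycerol kinase downstream of it in mature brown adipocytes. How the knockdowns were made, which cells carried the knockout, the age of the mice and the length of the cold exposure are not given in the sources used here. Whether the 4 arrays of a group hold RNA of 4 different cultures or mice is not given either, so p-values reflect only how far these arrays differed, which can be technical variation.

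Levels are log2 signal minus the log2 75th percentile of the same array, so that 0 is the 75th percentile itself and a step of 1 is a 2-fold change. A probe is called well above background, or detected, by the scanner's own flag. The number of arrays limits the precision. The arrays lay on 8 slides of 4, each holding both groups of an experiment, and were scanned on 4 days. The 75th percentile ran from 141.3 to 806.3 intensity units, and the lowest were knockdown arrays 3 and 4 of the Gyk experiment, at 141.3 and 245.5 against 355.5 to 418.1 in the 4 Gyk controls. In the Gyk knockdown Gk itself was at -2.61, -3.00, -1.40 and -1.19, against 0.40, 0.38, 0.22 and 0.39 in its controls. In the Pparg knockdown Pparg fell by 1.91 on the log2 scale. In both in vivo comparisons the Pparg probe was higher in the arrays labelled knockout, by 2.08 at room temperature and 2.13 in the cold. Whether this probe lies in the deleted part is not given in the sources used here, so it checks nothing about those labels, and directions below are for the arrays labelled knockout. Each of 12 brown adipocyte markers was detected on at least 1 array of every control group, and their summed signal was 1490 to 2090 times the 75th percentile in the culture controls and 4260 to 6120 times in the in vivo controls. Preadipocyte or fibroblast markers summed to 20.4 to 78.4 times in the same controls. In such bulk samples, fewer cells of a type and less RNA per cell cannot be told apart.

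Tab2 is an adaptor that brings the kinase TAK1 to ubiquitin chains in inflammatory signalling, and Denr pairs with Mcts1 in ribosome recycling and in re-initiation of translation after short upstream reading frames. Plagl1, also called Zac1, is an imprinted zinc finger transcription factor of the embryonic growth network. Olig1 is a helix-loop-helix factor known from the oligodendrocyte lineage. Plcd4 is a phospholipase C that releases inositol trisphosphate and diacylglycerol. Mab21l3 belongs to the Mab21 family, which also contains the DNA sensor Cgas. St14 encodes matriptase, a membrane-anchored serine protease of epithelia, and Inka2 encodes an inhibitor of the kinase Pak4. In brown adipocytes, glycerol kinase turns the glycerol set free by lipolysis into glycerol 3-phosphate, so that it can be used again for triglyceride synthesis.

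The members were read by 15 probes, and the probe with the highest mean signal stands for its gene. Probe sequences are not given in the sources used here. For Mab21l3 and Inka2, the 2 genes of the higher set that also passed the test in the Pparg knockdown, the 250 bases before the start are printed from RefSeq (GRCm38.p6) so that they can be set side by side. The first lies at chr3:101836224-101836473 on the minus strand and the second at chr3:105704349-105704598 on the plus strand.
Mab21l3: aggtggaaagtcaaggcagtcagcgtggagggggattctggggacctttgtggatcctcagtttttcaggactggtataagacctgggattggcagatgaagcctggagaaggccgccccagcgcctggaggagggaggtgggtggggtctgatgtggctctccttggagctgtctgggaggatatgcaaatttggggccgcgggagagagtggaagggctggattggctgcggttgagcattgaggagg
Inka2: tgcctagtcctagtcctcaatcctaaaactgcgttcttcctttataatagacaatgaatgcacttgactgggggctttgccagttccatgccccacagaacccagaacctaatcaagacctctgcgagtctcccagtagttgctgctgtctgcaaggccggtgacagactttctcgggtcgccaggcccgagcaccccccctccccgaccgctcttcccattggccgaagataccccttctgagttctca
A search on both strands for AGGTCA, the half-site to which nuclear receptors such as Pparg bind, found no match in these windows. The table held 9 such windows for 6 of the 8 members, with none for Olig1 or St14. One window held a match, at a second start of Inka2, beginning 200 bases before it. It is printed with 12 bases on each side and the half-site in capitals.
Inka2, second start: gccctgtgcaggAGGTCAggctggactgct
A match occurred in 4607 of 32841 windows of the same length, or 14.0%, and neither a match nor its absence is a measurement of binding.

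Tab2, Denr and Plagl1 were detected on all 8 arrays of the Gyk experiment, and Olig1 only on the controls. Tab2 read 0.24, 0.39, 0.34 and 0.38 in the controls and -1.75, -3.97, -2.06 and -1.91 in the knockdown arrays, a mean 6.76-fold lower (controls 0.34 ± 0.07, knockdown -2.42 ± 1.04, SD, n = 4 each). Knockdown array 2 was the lowest, and without it the difference was -2.24. Denr read 1.21, 1.34, 1.28 and 1.07 in the controls and 0.83, -1.86, -1.41 and -2.42 in the knockdown arrays (1.23 ± 0.12 against -1.22 ± 1.43, SD, n = 4 each). Knockdown array 1 lay close to the controls while the other three were far below them. The difference was -2.44 on the log2 scale, and -3.12 without that array.

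Plagl1 had the smallest spread of the 4 lower genes among the knockdown arrays. It read 0.83, 0.56, 0.65 and 0.56 in the controls and -0.95, -1.40, -2.08 and -1.44 in the knockdown, which is 4.34-fold lower. Olig1 was dim throughout, at -4.10, -3.81, -3.75 and -3.99 in the controls. No knockdown array had Olig1 above background, so only a bound can be given. The control mean over the higher of the probe's own signal and the dimmest signal well above background on each knockdown array put the level at least 1.64-fold lower. Bounds below are computed the same way. They are strict only where the brighter group was detected on every array.

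The 4 rising genes started from dim levels, and their knockdown arrays lay close together. Plcd4 read -2.08, -1.98, -1.72 and -1.74 in the knockdown and this probe was detected on none of the 4 controls, which makes its signal at least 7-fold higher. The other Plcd4 probe was detected on 3 of the 4 controls and was 2.84-fold higher, so the bound holds for the main probe and not for the gene. Mab21l3 was detected on every array of the experiment and read -3.39, -3.86, -3.28 and -3.29 in the controls against -1.29, -0.85, -1.0 and -0.84, a 5.5-fold higher level. St14 read -2.88, -3.06, -2.80 and -2.51 in the knockdown, was detected on no control array and was at least 4-fold higher. Inka2 read -4.68, -4.83, -4.29 and -3.78 in the controls, where only array 4 was above background, and -1.86, -2.14, -1.21 and -1.96 in the knockdown. The difference for Inka2 was 2.60 on the log2 scale.

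For all 8 genes the control and knockdown arrays did not overlap. Over all genes measured, 10.9% lay wholly lower and 11.5% wholly higher in the knockdown, and 8.76% passed an adjusted p of 0.05 in limma's moderated test. These shares are the background of the comparison that chose the members, and nothing is read from the members' count against them. The median difference over all genes was 0.02.

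**Figure D1:**
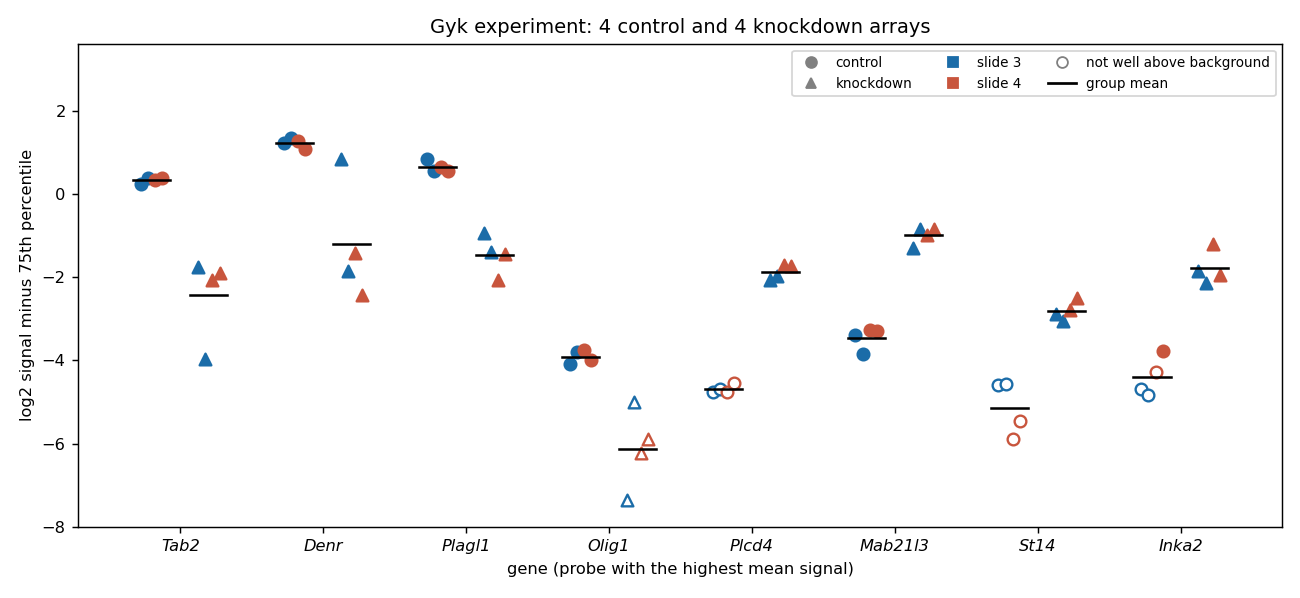
Log2 signal minus the 75th percentile of the array (y axis) for the 8 genes (x axis) on each control array (circles) and knockdown array (triangles) of the Gyk experiment, coloured by slide, with group means as bars and open symbols where the probe was not well above background. The groups do not overlap for any gene, Denr in knockdown array 1 sits at 0.83 near its controls, and Tab2 in knockdown array 2 sits apart at -3.97.

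Each slide of the Gyk experiment held 2 controls and 2 knockdown arrays, and the direction of all 8 differences was the same on both slides. The lack of overlap between the groups fixes that direction, so it is no separate check. Mab21l3, detected on all 8 arrays, differed by 2.56 on slide 3 and 2.36 on slide 4. For Olig1, Plcd4 and St14 1 group was below background on both slides, so the size on each slide is not read. Denr differed by -1.79 on slide 3 and -3.09 on slide 4. Gk differed between slides the other way, by -3.20 on slide 3 and -1.60 on slide 4. Slide 4 carried the 2 knockdown arrays of low signal, where the dimmest detected signal was -3.99 and -4.21 against -5.79 to -4.92 in the controls. Without those 2 arrays, an alternative chosen after seeing the data, Tab2 differed by -3.19, Denr by -1.74, Plagl1 by -1.83, Olig1 by -2.265 and Mab21l3 by 2.385. Plcd4, St14 and Inka2 then had too few detected arrays to enter the fit.

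A second look came from the other probes of the same genes, all annotated to the same transcript record as the main probe. For Inka2 the other probe differed by 2.17, with detection on all 8 arrays, and for Plcd4 by 1.51. The second-brightest Plagl1 probe differed by -2.05, close to the -2.12 of the main probe. Another Plagl1 probe, at -3.28 in the controls and detected on all 8 arrays, differed by -0.04, and the last was detected on only 3 of the arrays. The other Denr probe, which was dim, differed by -0.12 on slide 3 and -1.54 on slide 4, where it was below background in both knockdown arrays. The other Mab21l3 probe was not above background on any array of the experiment. Tab2, Olig1 and St14 have a single probe each. The probes of Plagl1, Denr and Plcd4 thus disagreed in size, and those of Inka2 and Plcd4 shared a direction.

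**Figure D2:**
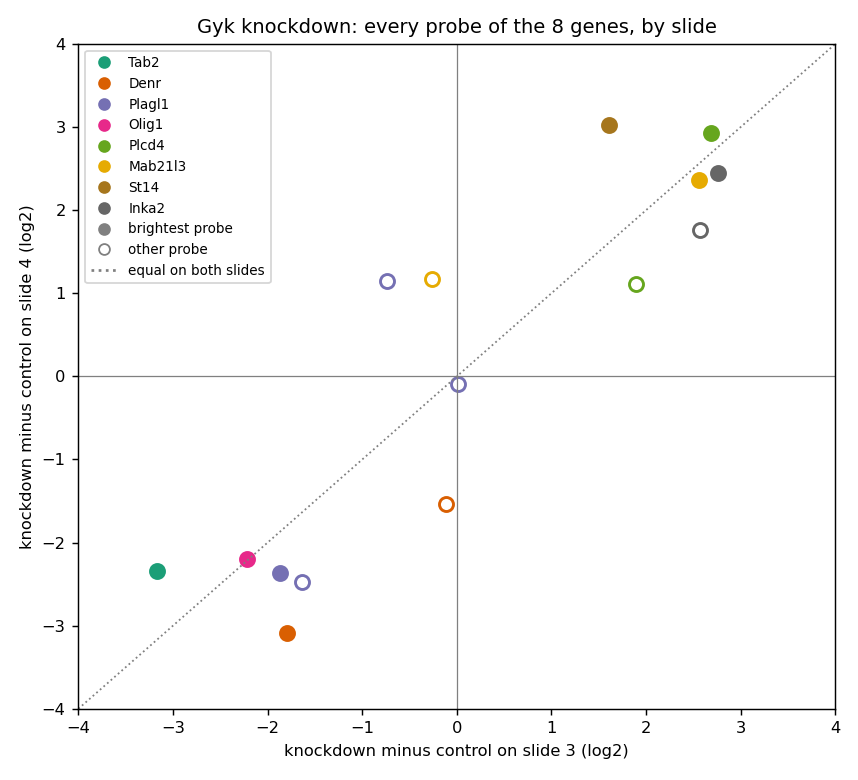
Knockdown minus control on slide 3 (x axis) against slide 4 (y axis), both as log2 differences, for the 15 probes of the 8 genes in the Gyk experiment. Filled points are the brightest probe of a gene and lie in the lower left or upper right, while open points are the other probes, of which 1 Plagl1 probe lies at the centre, 1 Denr probe is near 0 on slide 3 only, and dim Plagl1 and Mab21l3 probes change sign between slides.

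The question whether these genes also moved when Pparg was reduced could be tested, since that experiment used other arrays. In the Pparg knockdown, Mab21l3 and Inka2 rose and Denr and Olig1 fell, in the same directions as in the Gyk knockdown. Of 7 members tested, 2 rose and 2 fell, against a background of 18.1% of genes higher and 16.0% lower, or 34.1% in all (4375 genes). With the replicate block 7407 genes and 5 members were called, and with the slide block 7596 genes. The same 4 members lay wholly above or below their controls, where 18.8% of genes lay wholly higher and 17.1% wholly lower. The median difference of the 7 tested members was 0.29, beside 0.03 over all genes. Olig1 entered the test only through its control arrays, so its call is not read as support.

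Olig1 read -3.64, -3.51, -3.76 and -3.28 in the Pparg controls and was below background on all 4 knockdown arrays. It was at least 3.45-fold lower (adjusted p = 4.515e-05, limma), a probe that met the filter of 4 detected arrays through the controls alone. Denr was measured tightly, at 1.65, 1.63, 1.64 and 1.52 in the controls and 1.2, 1.2, 1.23 and 1.08 in the knockdown. Its fall of 0.43 on the log2 scale (SE 0.07, adjusted p = 0.001883, limma) was small beside the -2.44 of the Gyk experiment, and the 2 differences were not tested against each other. The dim Denr probe differed by -0.19 (adjusted p = 0.7578 in a limma fit over all probes).

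Inka2 read -3.84, -3.85, -3.31 and -3.10 in the controls and -2.29, -2.26, -1.83 and -1.91 in the knockdown, so the groups did not overlap. It rose 2.74-fold (log2 1.46, SE 0.20, adjusted p = 0.0005847, limma), and its other probe rose by 1.68 (adjusted p = 1.708e-05 over all probes). Mab21l3 read -3.25, -3.33, -3.08 and -2.88 against -2.46, -2.5, -2.06 and -2.09. Its rise was 0.86 (SE 0.14, adjusted p = 0.00192, limma). Within the 2 slides the differences were 1.57 and 1.34 for Inka2, 0.81 and 0.91 for Mab21l3, -0.44 and -0.42 for Denr, and -3.08 and -3.15 for Olig1. With normexp background correction, whose offset shrinks differences of dim probes, the calls of Inka2 (adjusted p = 0.3818) and Mab21l3 (adjusted p = 0.5148) were lost. In 1 fit over all 32 arrays those of Denr (adjusted p = 0.485) and Mab21l3 (adjusted p = 0.06691) were lost.

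The other members gave no call in the Pparg knockdown. St14 was 0.52 higher (SE 0.19, adjusted p = 0.06858, limma), and with the replicate block or the slide block it passed, at adjusted p = 0.01567 and 0.01095. It passed as well without control array 4 (adjusted p = 0.0412). Plagl1 was 0.29 higher (adjusted p = 0.1588, limma), the direction opposite to its fall in the Gyk knockdown. Its second probe rose by 0.48 (adjusted p = 0.008617 over all probes), and without control array 1 the main probe passed too (adjusted p = 0.02198). Plcd4 was detected on 3 knockdown arrays and no control, which is too few to test. Its ratio of 1.86 on the higher side rests in part on an undetected knockdown array and is not a strict bound.

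Tab2 split by slide in this experiment. It read -0.01 and 0.21 in the controls of slide 1 and -1.78 and -1.42 in those of slide 2, and the knockdown arrays split the same way, with 0.08 and 0.38 on slide 1 and -1.76 and -1.31 on slide 2. Slide 2 minus slide 1 was -1.70 in the controls and -1.76 in the knockdown. A share of 1.67% of 12843 genes had a larger mean difference between the slides. The knockdown differed from control by 0.10 (SE 0.61, adjusted p = 0.9264, limma), and with the slide as a block by the same amount (adjusted p = 0.541). For Tab2 the 2 slides thus differed by more than the 2 groups.

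**Figure D3:**
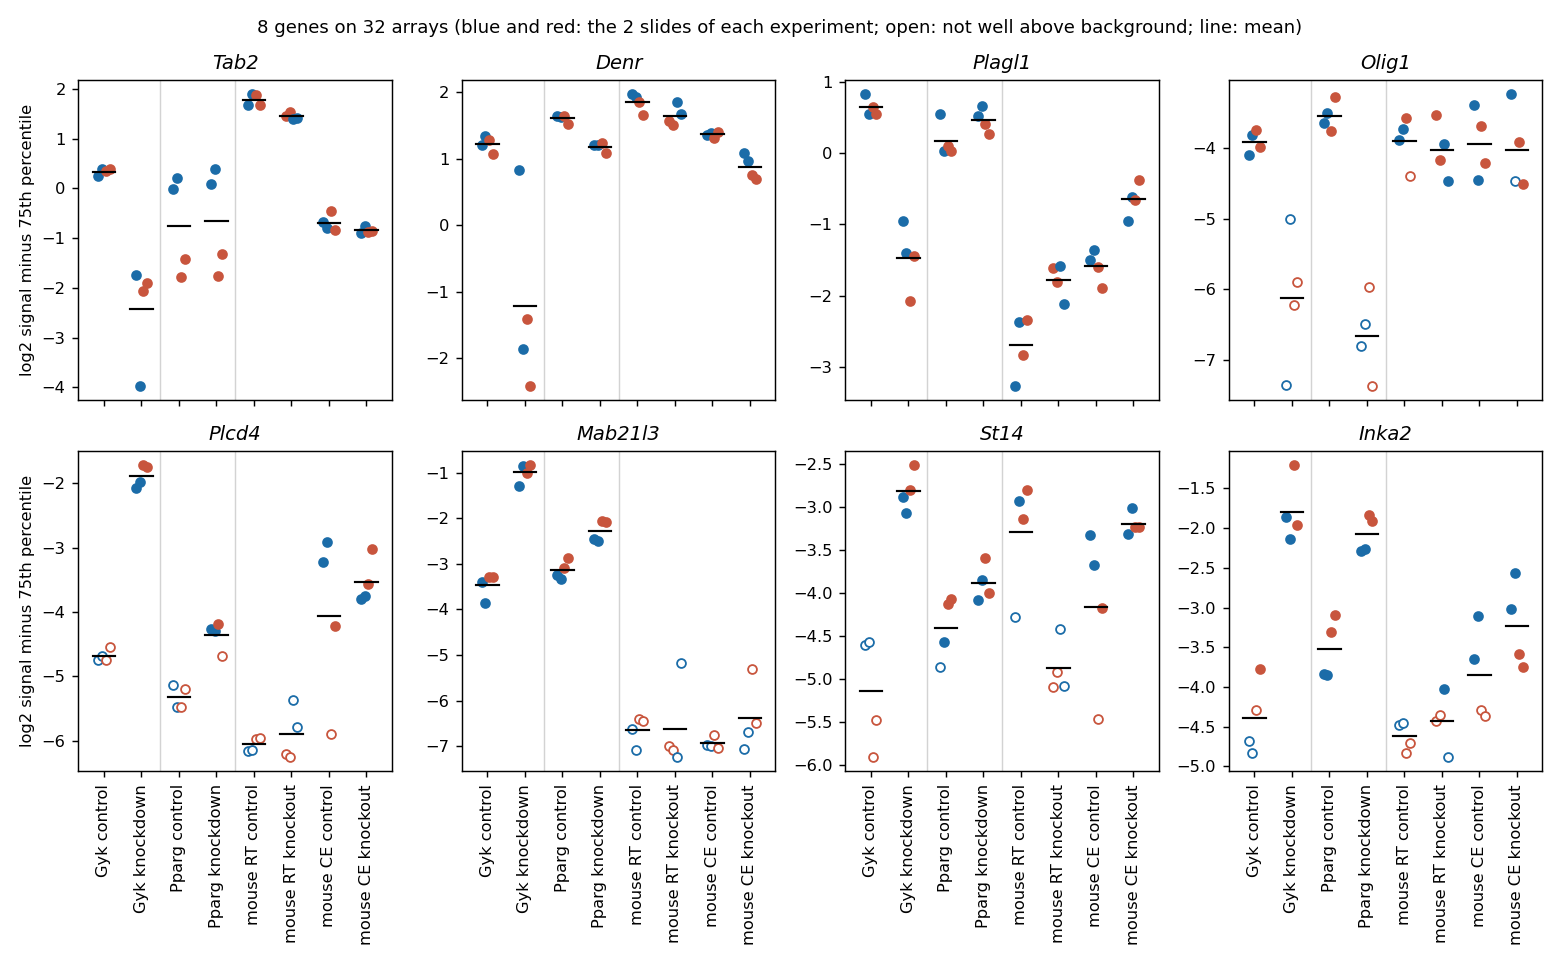
Log2 signal minus the 75th percentile (y axis) of each of the 8 genes on all 32 arrays, by group (x axis, RT for room temperature and CE for cold exposure), with blue and red marking the 2 slides of each experiment, open symbols where the probe was not well above background and lines at group means. Tab2 splits by slide in both Pparg culture groups, Olig1 is open in both culture knockdowns, and Mab21l3 is open on every in vivo array.

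In vivo, shares of the members near those of all genes were called between the arrays labelled knockout and their controls. By its main probe, Plagl1 alone was called in the same direction at both temperatures. Of 7 members tested, Plagl1 rose and Tab2 and St14 fell at room temperature, where 15.2% of genes rose and 19.7% fell (34.9% called). The same 3 lay wholly apart from their controls, as did 18.3% of genes on the higher and 23.1% on the lower side. Plcd4 was detected on no room-temperature array and Inka2 on only 1, so both were among the 7 through cold arrays. Their lack of a call at room temperature is not read as a result. St14 was detected there on 3 controls and no knockout array, so its call and lack of overlap are not read as support. In the cold Plagl1 rose and Denr fell, with 15.9% of genes called higher and 22.4% lower (38.4%). Plagl1 and St14 lay wholly above their controls there and Denr wholly below, beside 13.2% and 19% of genes. The members' median differences were -0.13 and 0.53, beside -0.06 and -0.05 over all genes.

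Plagl1 read -3.27, -2.37, -2.83 and -2.34 in the room-temperature controls and -1.61, -1.81, -1.58 and -2.12 in the knockouts. In the cold it read -1.50, -1.36, -1.60 and -1.89 against -0.95, -0.61, -0.66 and -0.37. No knockout array overlapped its controls at either temperature. The rise was 0.92 at room temperature (SE 0.20, adjusted p = 0.002926, limma) and 0.94 in the cold (SE 0.20, adjusted p = 0.002367, limma), and the second-brightest probe gave 0.91 and 0.92. The other 2 probes went the other way, by -0.55 (adjusted p = 0.04323 over all probes) and -0.42 at room temperature, and by -0.18 and -0.58 in the cold. The probe that differed by -0.55 was at -2.57 in the room-temperature controls, where the main probe was at -2.70. Plagl1 probes of like brightness thus disagreed in direction at room temperature. With normexp the room-temperature call of the main probe was lost (adjusted p = 0.1207). The rise of the main probe is opposite to its fall in the Gyk knockdown. Of 10 preadipocyte or fibroblast markers, 8 rose in the cold, with a summed signal of 88.2 to 136 times the 75th percentile in the knockouts against 47.9 to 69.4 in the controls. At room temperature 1 of the 10 rose and 1 fell, with sums of 48.0 to 83.3 against 56.2 to 78.4. All 7 macrophage markers tested rose in the cold, with sums of 26 to 40.7 against 15.5 to 18.9, and 1 of 7 rose at room temperature. Of 12 brown adipocyte markers, 1 rose and 8 fell at room temperature and 1 rose and 7 fell in the cold. The 1 that rose was Pparg itself at both temperatures. The part of these markers in the Plagl1 result was not tested.

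Tab2 read 1.68, 1.89, 1.87 and 1.68 in the room-temperature controls and 1.45, 1.54, 1.4 and 1.42 in the knockouts. It fell by 0.33 on the log2 scale (SE 0.10, adjusted p = 0.01663, limma), by 0.38 and 0.28 within the slides. Without control array 2 or control array 3 it stood at adjusted p = 0.05022 and 0.05041, with normexp at 0.06924 and in 1 fit over all 32 arrays at 0.6076. In the cold Tab2 read -0.68, -0.80, -0.46 and -0.84 in the controls and -0.89, -0.75, -0.88 and -0.86 in the knockouts, which overlapped, and differed by -0.15 (adjusted p = 0.2516, limma).

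Denr read 1.97, 1.93, 1.85 and 1.66 in the room-temperature controls and 1.57, 1.51, 1.85 and 1.67 in the knockouts, a difference of -0.20 (adjusted p = 0.1673, limma). In the cold it read 1.36, 1.39, 1.31 and 1.4 in the controls and 1.08, 0.97, 0.75 and 0.70 in the knockouts. It fell there by 0.49 (SE 0.11, adjusted p = 0.002785, limma), and by 0.35 and 0.63 within the slides. The call was lost in 1 fit over all 32 arrays (adjusted p = 0.314), and the dim probe differed by -0.08 (adjusted p = 0.8058 over all probes). The difference between the temperatures was -0.29 and did not pass (adjusted p = 0.2284, limma). Denr was thus called lower in the Pparg knockdown in culture and in the cold knockout arrays.

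St14 was the one tested member whose knockout difference passed the test for a change between the temperatures. At room temperature it read -4.27, -2.93, -3.13 and -2.80 in the controls, the first of these below background, and was detected on no knockout array. Its signal was lower (adjusted p = 0.006152, limma), by 3.01-fold between the measured means and 2.88-fold by the ratio used for bounds. With 1 control array below background, 2.88 is not a strict bound. The probe was detected at room temperature only on controls, so this call is not read as support. In the cold it read -3.32, -3.67, -5.46 and -4.17 in the controls, array 3 being below background, and -3.31, -3.01, -3.23 and -3.23 in the knockouts. That was 0.96 higher (SE 0.39, adjusted p = 0.0685, limma), and the groups did not overlap. The change of the knockout difference between the temperatures was 2.55 (SE 0.56, adjusted p = 0.01027, limma), where 13.4% of genes were called, 6.11% higher and 7.24% lower. It was the 1 call among 7 members, and Mab21l3 was not tested. The room-temperature knockout arrays were below background, so 2.55 compares signals and is not a measured size. With normexp both the room-temperature difference (adjusted p = 0.3519) and the change between temperatures (1.02, adjusted p = 0.2102) lost their calls. Without cold control array 1 the difference in the cold passed (1.24, adjusted p = 0.02667). The summed signal of 12 epithelial markers was 0.651 to 0.738 times the 75th percentile in the room-temperature controls and 0.517 to 0.593 in the knockouts, and 0.581 to 0.945 against 0.711 to 0.999 in the cold. Their part in the St14 result was not tested.

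The cold controls were not alike. The summed signal of 8 skeletal muscle markers was 172 and 213 times the 75th percentile in cold control arrays 1 and 2, which share a slide, against 17.1 and 22.4 in arrays 3 and 4 and 7.53 to 29.9 in the cold knockouts. In the room-temperature groups it ran from 4.43 to 31.1. St14, Plcd4 and Inka2 were each brighter in cold control arrays 1 and 2 than in arrays 3 and 4. Plcd4 read -3.23 and -2.91 against -5.89 and -4.21, with array 3 below background, and Inka2 read -3.65 and -3.11 against -4.29 and -4.37. Without arrays 1 and 2, an alternative chosen after seeing the data, 5 members rather than 2 were called in the cold. With all arrays 38.4% of genes were called there. The share of all genes without the 2 arrays is not given here, so the count is not read as particular to the members. St14 was then 1.62 higher in the knockouts (adjusted p = 0.007662), Plcd4 1.52 (adjusted p = 0.009009) and Inka2 1.10 (adjusted p = 0.01186), and the change of St14 between temperatures was 3.21 (adjusted p = 0.002302, limma throughout). The part of muscle signal in these results was not tested beyond this.

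With all arrays, Inka2 differed in the cold by 0.63 (adjusted p = 0.1106, limma), and passed with the slide as a block (adjusted p = 0.01352) and with the replicate block (adjusted p = 0.01089). Plcd4 differed by 0.53 in the cold (adjusted p = 0.4077, limma). At room temperature neither Plcd4 probe was detected on any of the 8 arrays, and Inka2 was detected on 1 knockout array by its main probe and on 2 by the other. Olig1, which fell below background in both culture knockdowns, differed by -0.13 and -0.09 between knockout and control in vivo (adjusted p = 0.7669 and 0.8436, limma), and was detected on 7 of 8 arrays at each temperature. Of 7 glial or Schwann markers, 5 rose at each temperature and none fell. The main probe of Mab21l3 was not detected on any of the 16 in vivo arrays and was not tested there, and its other probe was detected on 2 of them.

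**Figure D4:**
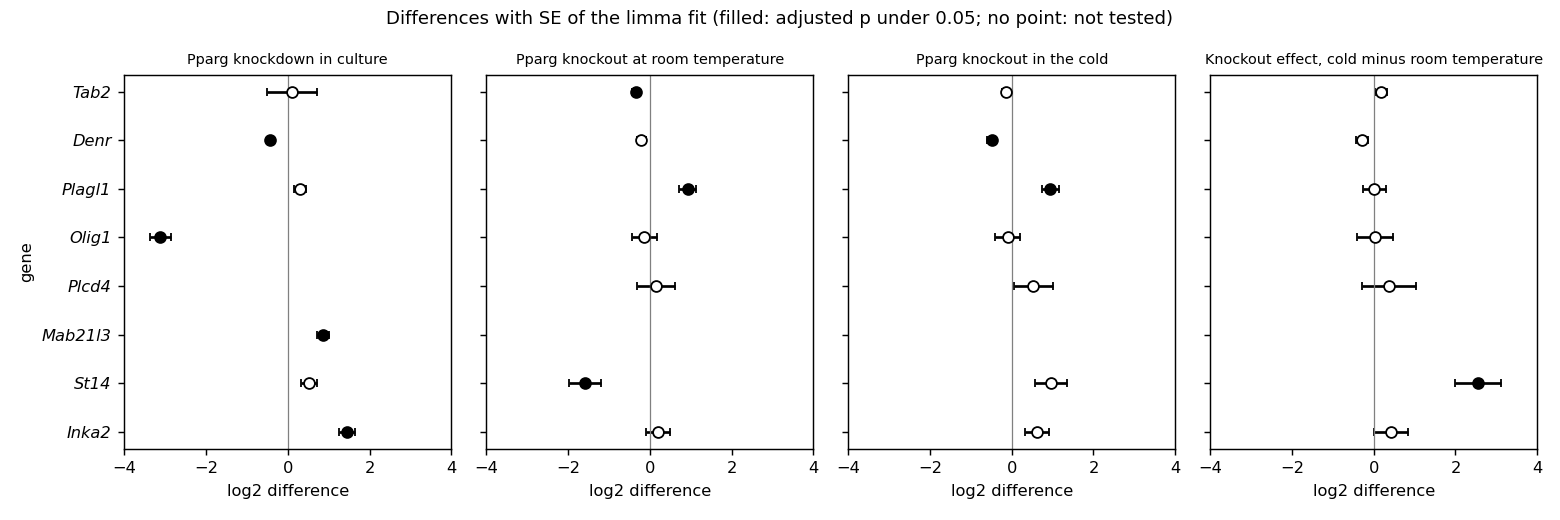
Log2 differences (x axis) with the SE of the limma fit for each member (y axis) in the Pparg knockdown in culture, in the Pparg knockout under each temperature, and for the cold difference minus the room-temperature one. Filled points passed an adjusted p of 0.05: Olig1 in culture lies farthest to the left at -3.11, Plagl1 lies at 0.92 and 0.94 in the 2 knockout panels, and St14 is filled at -1.59 and 2.55 and open at 0.96 in the cold.

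The in vivo arrays of the 2 temperatures lay on different slides and were scanned on different days, so temperature, slide and day cannot be told apart. In the control mice 66.7% of all genes were called, 41.6% higher and 25.1% lower in the cold arrays, and in the knockout mice 65.5%, 40.9% higher and 24.6% lower. Of 7 members, 3 were called higher and 2 lower in the controls, and 4 higher and 2 lower in the knockouts. All of these lay wholly apart between the temperatures, beside 37.3% of genes wholly higher and 22.2% wholly lower in the controls and 37.8% and 22.7% in the knockouts. Plcd4 was detected on no room-temperature array and Inka2 on only 1, so both met the filter through cold arrays. The calls and the lack of overlap of these 2 genes are not read as support. Nor are those of St14 in the knockouts, where it was detected only on cold arrays. The median over all genes was 0.23 in both. Cold minus room temperature was -2.48 for Tab2 in the controls (SE 0.10, adjusted p = 3.061e-11, limma) and -2.30 in the knockouts (adjusted p = 6.707e-11, limma). No cold array overlapped a room-temperature array of the same genotype. Its mean difference between the 2 slides of the Pparg culture experiment was -1.73. Denr differed by -0.49 (adjusted p = 0.001145, limma) and -0.78 (adjusted p = 1.915e-05, limma), both lost in 1 fit over all 32 arrays (adjusted p = 0.2328 and 0.05758). The dim Denr probe differed by -1.78 (adjusted p = 2.419e-06) and -1.70 (adjusted p = 4.076e-06, limma over all probes). Plagl1 differed by 1.12 and 1.14, and its second-brightest probe by 1.01 and 1.03. Of its remaining probes, 1 differed by 0.27 (adjusted p = 0.2232) and 0.64 (adjusted p = 0.008683), and the other went the opposite way, by -0.40 (adjusted p = 0.3223) and -0.56 (adjusted p = 0.1679, limma over all probes). Plcd4, below background on every room-temperature array, was at least 2.77-fold higher in the cold knockouts. In the cold controls, of which 3 were detected, it was higher by a ratio of 1.32 that is not a strict bound. That call was lost with normexp (adjusted p = 0.3531). Inka2 was detected on no room-temperature control and on 2 cold controls, and was higher in the cold controls (adjusted p = 0.03296, limma). The ratio of 1.42 rests in part on undetected cold control arrays and is not a strict bound. In the cold knockouts Inka2 was higher by 1.19 (adjusted p = 0.002497, limma), with 1 room-temperature knockout array detected. The call in the controls was lost with normexp, without cold control array 1 or 2, and without room-temperature control array 3 or 4 (adjusted p from 0.06575 to 0.4927). St14 was at least 3.06-fold higher in the cold knockouts and differed by -0.87 in the controls (adjusted p = 0.06325, limma), or by -1.54 without cold control arrays 1 and 2 (adjusted p = 0.004762). It passed as well without cold control array 1 (adjusted p = 0.01933) or 2 (adjusted p = 0.04573), or without room-temperature control array 1 (adjusted p = 0.01176).

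Genes that work with each member were listed from general knowledge, with earlier results of these data known. In the Gyk knockdown the background was 4.65% of genes higher and 4.11% lower. Of 28 partners of Tab2 in TAK1 and NF-kappaB signalling, 1 rose, the kinase Map2k7 (0.47, adjusted p = 0.04295), and the median was 0.16. None of 15 tested partners of Denr passed in limma (0 at an unadjusted p under 0.05), with a median of -0.18. None of 9 of St14 passed (1 at an unadjusted p under 0.05), with a median of -0.06. Of 13 imprinted or Plagl1 family genes, Peg10 rose by 1 (adjusted p = 0.03596) and Mest fell by 1.19 (adjusted p = 0.003071, limma), each detected on 2 arrays of its lower group. Mest marks growing adipocytes, and Peg10 derives from a retrotransposon.

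Among 10 glial genes and relatives of Olig1, S100b fell by 1.501 (adjusted p = 0.0005769) and Cspg4 by 0.87 (adjusted p = 0.006754, limma). Of 16 relatives of Plcd4, the phospholipase Plch2 rose by 1.79 (adjusted p = 0.0008164). Of 7 relatives of Mab21l3, Itprip rose by 0.82 and Cgas by 0.59. Of 12 partners of Inka2, the kinase Pak3 rose by 1.59 (adjusted p = 0.008837, limma). Without knockdown arrays 3 and 4, 2 of the Inka2 partners rose and 1 fell, 1 Mab21l3 relative rose, 1 Tab2 partner fell and none rose, and 2 imprinted or Plagl1 family genes fell and none rose.

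The same lists in the Pparg knockdown, where 34.1% of genes were called, gave Plch2 again the largest rise, 2.56 (adjusted p = 3.206e-06), among 9 risers and 4 fallers of 17 Plcd4 relatives. Pak3 rose by 0.78 (adjusted p = 0.0007485) and Pak4, the target of Inka2, fell by 0.29 (adjusted p = 0.03217, limma), and the other 10 Inka2 partners did not pass. Of 15 Denr partners 6 fell and none rose, Mcts1 by 0.49 (adjusted p = 0.02268) and Abce1, a ribosome recycling factor, by 0.31 (adjusted p = 0.03746). Of 13 imprinted or Plagl1 family genes 4 rose and 3 fell, among them Cdkn1c, a brake on the cell cycle, by 1.47 (adjusted p = 0.0002038) and Mest by 1.31 (adjusted p = 6.116e-05). Of 10 glial genes and Olig1 relatives 4 rose and 2 fell. S100b rose by 0.54 here (adjusted p = 0.006847), opposite to the Gyk knockdown, and Cspg4 fell by 1.11 (adjusted p = 0.00126, limma). Of 28 Tab2 partners 6 rose and 3 fell, with Myd88 the largest rise at 0.55. Of 8 Mab21l3 relatives 2 rose and 3 fell, and of 10 St14 partners 2 rose, one of them the matriptase substrate Hgf by 1.02, and 1 fell.

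Genes that respond to double-stranded RNA and interferon were read in the same arrays. In the Gyk comparison 1 of 17 passed, the sensor Ifih1, higher by 1.52 (adjusted p = 0.03638, limma), and 10 had an unadjusted p under 0.05, while the median of the 17 was 1.07. Their summed signal was 22.7 to 60.7 times the 75th percentile in the controls and 42.8 to 90.9 in the knockdown, so the groups overlapped. Without knockdown arrays 3 and 4 none of the 17 passed in limma (2 at an unadjusted p under 0.05) and the median was 0.75. In the Pparg knockdown 12 of 16 rose and none fell, with a median of 0.71 and a largest rise of 1.57 for Ifit3 (adjusted p = 3.419e-06, limma). The sums were 12 to 15.1 in the controls and 18.2 to 19.5 in the knockdown. Of 13 genes of the RNA interference machinery, 1 rose in the Gyk knockdown, Ago2 by 0.58 (adjusted p = 0.02492), and in the Pparg knockdown 4 rose and 1 fell. The part of these responses in the members' differences was not tested.

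Markers of other cell types were read for the same arrays. St14 is an epithelial protease, and of 12 epithelial markers Epcam, Cdh1, Krt8, Krt18, Cldn4 and Grhl2 were below background on all 8 arrays of the Gyk experiment. Of the 5 tested Krt19 rose, by 1.35 (adjusted p = 0.00146, limma), and the summed signal was 0.86 to 1.04 times the 75th percentile in the controls and 1.22 to 1.46 in the knockdown. Olig1 is a glial factor, and of 6 glial or Schwann markers tested 1 fell, with summed signals of 9.06 to 10.5 in the controls and 6.74 to 13.2 in the knockdown, which overlap. Of 12 brown adipocyte markers 5 fell in the Gyk knockdown and none rose, with summed signals of 1810 to 2090 in the controls and 1510 to 2080 in the knockdown. Ucp1, 1 of the 5, had a value on only 2 Gyk control arrays, those of slide 4. No measured Ucp1 value enters the sums of the slide 3 controls. In the Pparg knockdown 10 of 11 brown adipocyte markers fell, with sums of 638 to 849 against 1490 to 1900. The list holds Pparg, so 1 of the 10 falls and part of the lower sum are the targeted gene itself. The part of cell makeup in the members' differences was not tested.

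Across all 32 arrays, each gene's level was set against 12909 genes that were above background on at least 16 arrays, and the 2 with the highest Pearson correlation are named. The arrays share slides, scan days and groups, so these values describe the arrays and carry no p. Each gene was picked for likeness on these same arrays. A difference shared with its member was favoured by that choice and is not read as support. Mab21l3 followed Fam110a (r = 0.975) and Zfp365 (r = 0.973), which were 1.385 and 1.297 higher in the Gyk knockdown. The Mab21l3 probe was below background on every in vivo array, so these 2 correlations rest in part on undetected values. Tab2 followed Trappc2 (r = 0.936) and Zfp408 (r = 0.917). In the Pparg culture controls slide 2 minus slide 1 was -2.09 for Trappc2 and -1.12 for Zfp408, the direction seen for Tab2, and in the Gyk knockdown they differed by -1.995 and -1.005. Trappc2 read -6.04 to -4.79 in the Gyk knockdown, below the dimmest detected signals of knockdown arrays 3 and 4 (-3.99 and -4.21). Its difference there thus rests in part on undetected values. Inka2 followed C1qtnf1 (r = 0.933) and Myl9 (r = 0.857). Plagl1 followed Svil (r = 0.913) and Ogn (r = 0.905). Plcd4 followed Rnf169 (r = 0.907) and Zfp580 (r = 0.856). Denr followed Gabarapl2 (r = 0.865) and Ostf1 (r = 0.855). The weakest likenesses were those of Olig1, with Rxrg (r = 0.82) and Atp5c1 (r = 0.807), and of St14, with Mmp17 (r = 0.758) and Tinagl1 (r = 0.735).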

How the data were processed

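RNA was extracted with TRIzol and 200 ng was labelled with Cy3, per the labels. Per the file headers, Agilent Feature Extraction 10.7.3.1 made the background-subtracted intensity values, without scaling one array to another. The authors' deposited value table holds the same intensities. From these intensities log2 signals minus the array's 75th percentile were computed, leaving out 1377 control spots and 101 to 247 outlying spots per array. Gene names came from a GRCm38.p6 table (27234 of 39429 probes), and the brightest probe stood for a gene. Testing required detection on 4 or more of a fit's arrays. Fits used limma 3.58.1 in R 4.3.3 (lmFit, eBayes, Benjamini-Hochberg over all genes): 8 arrays for each culture experiment, 16 in vivo, checked on simulated data. Members, lists and tests were chosen with earlier results of these data known. Named genes were the members, Gk, Pparg and Ucp1 as checks, up to 3 list genes per list and comparison that passed, and the 2 genes most like each member. Same-numbered Pparg culture samples deviated together (correlations 0.703 to 0.767), which meets the limit set for pairing. Different numbers ran from -0.791 to 0.725, and numbers 1 and 2 share a slide, as do 3 and 4, so number and slide cannot be told apart. Alternatives were quantile and normexp (offset 50) normalization, no filter, slide and replicate blocks, 1 fit over 32 arrays, each array left out, other probes, and leaving out Gyk knockdown arrays 3 and 4 or cold control arrays 1 and 2, the last pair of settings chosen after seeing the data.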

Additional observations from a re-analysis of the deposited data

Results flagged for a closer look

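Of 64 sets of 4 arrays (8 genes in 8 groups), 3 held an array far from the others by Dixon's ratio (over 0.829). Chance puts about 1 in 20 such sets over that limit, so 3 of 64 is near what chance gives. Tab2 in Gyk knockdown array 2 was at -3.97, while the other 3 knockdown arrays lay between -2.06 and -1.75. Plagl1 in Pparg culture control array 1 was at 0.56, above 0.03 to 0.10 in the other 3. Mab21l3 in room-temperature knockout array 4 was at -5.17, above -7.23 to -7.00 in the other 3, and was below background on all of these arrays. St14 differed between temperatures in its knockout effect, by 2.55 on the log2 scale (adjusted p = 0.01027, limma), with its room-temperature knockout arrays all below background.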

How the results depend on the processing

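Over the alternatives, 754 of the members' values kept direction and side of the threshold, 24 lost and 19 gained a call, 14 Gyk values moved by more than the spread, and 6 reversed. All 6 reversals were values of the 2 Plagl1 probes with the lowest mean signal: A_55_P2153251 gave -0.398 and -0.558 for cold against room temperature in control and knockout mice, and -0.419 and -0.580 for the knockout effect without and with cold, and A_55_P1961965 gave -0.551 and -0.180 for the latter pair. With normexp, 3 rather than 5 members were called for cold in control mice, 0 rather than 3 for the knockout at room temperature (2 at an unadjusted p under 0.05, limma), and 0 rather than 1 for the change between temperatures (1 at an unadjusted p under 0.05, limma); its offset shrinks differences of dim probes by construction. In 1 fit over all 32 arrays 2 rather than 4 were called in the Pparg knockdown, and 2639 rather than 1070 genes in the Gyk knockdown. There, 447 genes were called with no filter, 259 with normexp and 111 with the replicate block, where same-numbered arrays correlated at 0.054 to 0.116 and share only a number. Leaving out 1 array gave 298 (without control array 3) to 1383. Leaving out 1 array gave 3 to 4 members in the Pparg knockdown, 2 to 3 for the knockout at either temperature, 4 to 6 for cold in control mice, 6 in knockout mice and 1 for the change between temperatures. Outside the Gyk comparison, the shares of all genes called under normexp, in the fit over 32 arrays and with 1 array left out are not given here. Those counts of members are not read as particular to the members. Without cold control arrays 1 and 2, chosen after seeing the data, 5 rather than 2 members were called in the cold, a count given without the share of all genes and not read as particular to the members. The replicate block changed the calls of St14 in the Pparg knockdown (adjusted p = 0.01567) and Inka2 in the cold (adjusted p = 0.01089), and no other member's. Olig1, Plcd4, St14, Inka2 and Mab21l3 lie near background in several groups, which limits their values to bounds there. Where not stated, the cause of a change was not tested.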

Other observations

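The probe of Gk, the gene targeted in the Gyk experiment, also differed between slides in the cold in vivo arrays. It read 2.02 and 1.56 in cold control arrays 1 and 2 and -0.18 and 0.03 in arrays 3 and 4, and 0.89 and 0.78 against -1.03 and -1.13 in the cold knockouts. Slide 8 minus slide 7 was -1.86 in the controls and -1.92 in the knockouts, and 0.77% of 12982 genes had a larger mean difference. At room temperature the Gk difference between slides was 0.48 in the controls and -0.06 in the knockouts. Among genes with large falls in the Gyk knockdown that did not pass, Syt10 (-2.47), Tfb1m (-2.27), Vps37a (-2.19) and Ostf1 (-2.04) were named after their values were seen. Ostf1, the second gene most like Denr over the 32 arrays, ranged from -4.73 to 0.10 among the 4 knockdown arrays.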
